A study of Homo sapiens with 24 samples.

Results

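T-47D, a luminal breast cancer cell line that expresses the estrogen receptor, was transfected with a non-target control RNAi duplex (NTC), and its gene expression was set against that of parental T-47D cells that carried no duplex. The comparison was made by the titles of the samples and takes 12 of the 24 arrays of the series, or 4 of its 8 groups. These were NTC cells treated with vehicle, NTC cells treated with HRG, parental cells treated with vehicle and parental cells treated with HRG, with 3 biological replicates in each group. HRG (heregulin), which binds ErbB3 and ErbB4, was given at 20 ng/ml for 6 h, and the vehicle was PBS. NTC cells were starved of serum from 16 h after transfection for 48 h before HRG, whereas the starvation time of the parental cells was not given in the sources used here. The other 12 arrays hold cells with P-Rex1 RNAi duplex #1 or #2, whose values appear below only as a description.

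A non-target duplex is a small double-stranded RNA designed to match no transcript of the cell, and it is carried across the membrane in a lipid complex. Cells can sense double-stranded RNA through the endosomal receptor TLR3, the cytosolic helicases RIG-I and MDA5 (the products of RIGI and IFIH1) and the kinase PKR (EIF2AK2), and these sensors can switch on interferons, which in turn induce genes such as IFIT1, MX1 and OAS1. Short duplexes are bound by the endonuclease Dicer and loaded into Argonaute proteins, and lipid carriers, membrane uptake and foreign RNA can also engage stress programs run by transcription factors such as ATF4, HSF1, NRF2 and p53. Parental cells are described as cells without RNAi, and no source used here says whether they met the transfection reagent. With no group that received the reagent alone, the effects of the duplex, the reagent and any difference in handling cannot be told apart.

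Each array gave 1 log2 expression value, normalized by Robust Multichip Average (RMA), for each of 28536 probe sets, and the 21042 probe sets with a gene symbol were tested with limma. A difference below is always NTC minus parental on the log2 scale, and a probe set passed at a Benjamini-Hochberg adjusted p under 0.05. Array medians lay between 6.04 and 6.18. On the second principal component, which held 10.9% of the variance, NTC HRG arrays lay between -16.8 and 0.44, against 0.10 to 7.61 for parental HRG arrays, and NTC vehicle arrays lay between 2.26 and 8.18, against -13.9 to 7.64 for parental vehicle arrays. The mean levels of 13 luminal markers lay between 8.98 and 12.6. Medians over the markers of fibroblasts, leukocytes and endothelial cells were 5.41, 4.93 and 4.33, with highest members at 7.46, 6.60 and 6.39. A level of 5.08 bounds the dimmest 25% of the tested probe sets. Below it lay 4 of 11 fibroblast, 6 of 10 leukocyte and 7 of 9 endothelial markers. No fibroblast, leukocyte or endothelial marker passed between NTC and parental cells.

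Averaged over both HRG states, non-target transfection was followed by small changes in few genes. Of 21042 probe sets, 12 were higher in NTC cells (0.057%) and 10 were lower (0.0475%), and none of the 22 reached a 1.5-fold change. The changes that passed lay between 1.13-fold and 1.37-fold. At an unadjusted p under 0.05 there were 900 higher (4.28%) and 610 lower (2.9%). All 22 probe sets had the same sign in both HRG states (43.5% of all probe sets), which choosing them by the average over both states favours. In 19 of them the NTC and parental arrays did not overlap in either state. Over all probe sets, 142 were higher in NTC cells without overlap in both states (0.675%) and 95 were lower (0.451%). The 22 probe sets held 20 distinct profiles, because 3 probe sets shared by FAM25 genes and AGAP11 had identical values.

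The largest rise among probe sets that passed was in CALCR, the calcitonin receptor. CALCR had log2 levels of 8.05, 8.11 and 8.03 in NTC vehicle arrays, against 7.67, 7.60 and 7.73 in parental vehicle arrays. With HRG its levels were 8.09, 8.49 and 8.40 in NTC cells, against 7.83, 7.56 and 8.05 in parental cells. Each NTC array was above each parental array of its HRG state, with the narrowest gap under HRG. The averaged difference was 0.46 with an SE of 0.07 (limma adjusted p = 0.00639), and cells with duplexes #1 and #2 differed from the same parental arrays by 0.86 and 0.55.

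GPC6, a glypican that carries heparan sulfate chains on the cell surface, was the rise with the smallest p. It stood at 9.57, 9.54 and 9.52 in NTC vehicle arrays, against 9.24, 9.29 and 9.24 in parental vehicle arrays, and at 9.04, 9.03 and 9.07 in NTC HRG arrays, against 8.69, 8.52 and 8.75 in parental HRG arrays. The groups did not overlap in either state, and the NTC arrays of a state lay close together. The averaged difference of GPC6 was 0.34 with an SE of 0.05 (limma adjusted p = 0.00286). Duplexes #1 and #2 differed from parental cells by 0.15 and 0.11.

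A pair of genes of the luminal and estrogen-responsive list also passed. TFF3, a secreted trefoil peptide of mucous epithelia, had levels of 10.87, 10.89 and 10.85 in NTC vehicle arrays, against 10.68, 10.67 and 10.64 in parental vehicle arrays. Under HRG its levels were 10.67, 10.80 and 10.80 in NTC cells, against 10.55, 10.32 and 10.51 in parental cells, again without overlap. TFF3 differed by 0.25 (SE 0.04, limma adjusted p = 0.0145), while its difference was -0.21 in cells with duplex #1 and 0.08 in cells with duplex #2. CXCL12, the chemokine also known as SDF-1 that acts on the receptor CXCR4, had a difference of 0.23 (SE 0.04, limma adjusted p = 0.0199), with 0.16 for duplex #1 and 0.32 for duplex #2. These were the 2 of 33 measured genes of that list that passed, while 0.057% of all probe sets passed as higher. Of the 33, 11 were below 0 (45.1% of all probe sets), with a list median of 0.02 against 0.01 for all probe sets. TFF1, a second trefoil peptide and a classical estrogen target, had 0.22 and did not pass (limma adjusted p = 0.0748).

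TFF3, TFF2, TFF1 and TMPRSS3 are neighbours in that order in the RefSeq annotation, and TMPRSS3, a membrane-bound serine protease, passed as well. TMPRSS3 stood at 6.80, 6.79 and 6.79 in NTC vehicle arrays, against 6.48, 6.48 and 6.36 in parental vehicle arrays. With HRG it stood at 6.08, 6.25 and 6.15 in NTC cells, against 6.07, 5.91 and 5.85 in parental cells, where the first array of each group almost touched. Its averaged difference was 0.28 (SE 0.05, limma adjusted p = 0.0154). The genes beside these, chosen after their values were seen, did not pass: TFF2 had 0.00, UBASH3A -0.02, RSPH1 -0.06, SLC37A1 0.05 and ABCG1 0.08.

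**Figure D1:**
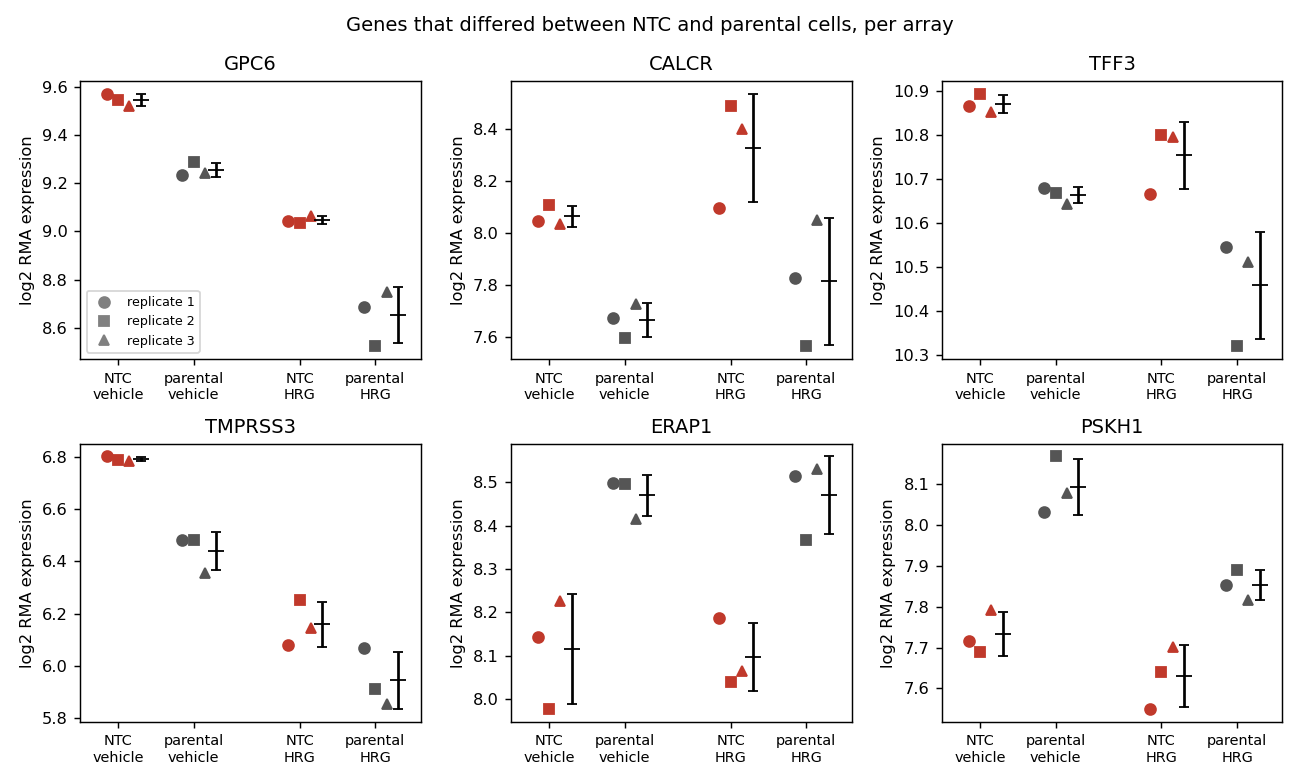
RMA log2 expression of 6 genes that passed in the averaged comparison, with each point 1 array, the marker its replicate number and the bar the mean and SD of 3 arrays; NTC groups stand left of the parental group of the same HRG state. NTC arrays lie above parental arrays for GPC6, CALCR, TFF3 and TMPRSS3 and below them for ERAP1 and PSKH1 in both states.

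Also higher was STRADB. This pseudokinase partner of the tumor suppressor kinase LKB1 was measured by 2 probe sets that moved together (0.31 and 0.30), and these may share target sequence. ARG2, the mitochondrial arginase, had a difference of 0.30, and ST3GAL6, a sialyltransferase, had 0.26. MMD had 0.23, PEG10, a gene derived from a retrotransposon, had 0.22, and TXNDC12, a thioredoxin-like protein of the endoplasmic reticulum, had 0.17. The limma adjusted p of these genes lay between 0.0199 for ARG2 and 0.0496 for ST3GAL6. For ST3GAL6 and the STRADB probe sets, NTC and parental arrays were apart in vehicle and overlapped under HRG.

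The largest fall among probe sets that passed was in ERAP1, the aminopeptidase of the endoplasmic reticulum that trims peptides for display on MHC class I. ERAP1 had levels of 8.14, 7.98 and 8.23 in NTC vehicle arrays, against 8.50, 8.50 and 8.42 in parental vehicle arrays. With HRG it had 8.19, 8.04 and 8.07 in NTC cells, against 8.51, 8.37 and 8.53 in parental cells. Each NTC array was below each parental array of its state, and the averaged difference was -0.36 (SE 0.05, limma adjusted p = 0.00300). For duplexes #1 and #2 the differences were -0.08 and -0.27. B2M, the light chain of MHC class I and the gene used by the study to normalize quantitative PCR, had an averaged difference of 0.12 that did not pass (limma adjusted p = 0.336), with 0.18 without HRG and 0.06 with HRG. Its exact permutation test gave p = 0.005, the smallest it can give, and an adjusted p of 0.0925 over 37 genes.

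PSKH1, a serine kinase, fell by 0.29 (SE 0.04, limma adjusted p = 0.00286). It stood at 7.72, 7.69 and 7.79 in NTC vehicle arrays, against 8.03, 8.17 and 8.08 in parental vehicle arrays, and at 7.55, 7.64 and 7.70 in NTC HRG arrays, against 7.85, 7.89 and 7.82 in parental HRG arrays. NTC and parental arrays were apart in both states, while the differences of duplexes #1 and #2 were -0.02 and 0.04. The remaining falls were in ACSF2, an acyl-CoA synthetase (-0.27), C20orf96 (-0.27), CDK11A, a cyclin-dependent kinase tied to splicing (-0.25), AMTN (-0.21), PFKFB2, which sets the level of the glycolytic activator fructose-2,6-bisphosphate (-0.19), and the FAM25 and AGAP11 probe sets (-0.30). Their limma adjusted p ran up to 0.0496. CDK11A has a near-identical neighbour, CDK11B, and the array may not separate them. AMTN is dim, with levels of 4.02 to 4.10 in NTC vehicle arrays, against 4.28 to 4.36 in parental vehicle arrays.

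PREX1, the exchange factor for Rac that the other duplexes were designed to silence, was 0.14 lower on average in NTC cells and did not pass (difference -0.14, SE 0.05, limma adjusted p = 0.528). Its levels were 10.52, 10.36 and 10.38 in NTC vehicle arrays, against 10.63, 10.59 and 10.59 in parental vehicle arrays. With HRG they were 9.53, 9.52 and 9.30 in NTC cells, against 9.64, 9.52 and 9.50 in parental cells. Without HRG the NTC arrays were lower throughout, whereas with HRG they overlapped. In an exact permutation test of NTC labels within each HRG state, two-sided, PREX1 gave p = 0.025, and an adjusted p of 0.231 over the 37 genes so tested. Duplexes #1 and #2 differed from parental cells by -1.32 and -1.21 on the same scale.

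No interferon-stimulated gene of the list passed between NTC and parental cells. Of the 47 measured of 48 listed, 40 had a difference below 0 and 7 one above 0, and at an unadjusted p under 0.05, 8 were lower (2.9% of all probe sets) and 0 were higher (4.28% of all probe sets). The list median was -0.10, against 0.01 for all 21042 probe sets, of which 45.1% were below 0. SP100, a nuclear body protein, had -0.24 (unadjusted p = 0.00155, limma adjusted p = 0.264), and SAMD9L had -0.26, IFI35 -0.16 and HERC5 -0.15. ISG15, the ubiquitin-like modifier, had 0.02 and differed less than its replicates did.

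Many members hold a regulatory sequence tied to the interferon response. The list was chosen for that response, so a high share of the sequence is not independent of the choice. The interferon-stimulated response element is bound by interferon regulatory factors. Its core repeat was searched as GAAANNGAAA on both strands (reverse complement TTTCNNTTTC, overlapping matches counted) in the RefSeq promoter windows of GRCh38.p14, from 250 bases before to 50 bases after each start site. Of the 39 list genes with a window, 27 held it (69.2%), against 4.38% of 27305 genes with a window. The median difference was -0.10 for the 27 list genes with the motif and -0.11 for those without. A match is a string of letters and not a shown binding site. Parts of 4 of these windows, all before the start site, and that of the sensor gene IFIH1 are printed 5′ to 3′ on the strand of the gene with the motif in capitals, to show how the motif lies in genes whose differences are given here:
IFIT1 (chr10:89392497-89392616, + strand): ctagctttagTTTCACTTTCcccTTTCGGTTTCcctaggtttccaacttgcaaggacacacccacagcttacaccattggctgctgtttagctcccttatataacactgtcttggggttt
IFI6 (chr1:27672239-27672358, - strand): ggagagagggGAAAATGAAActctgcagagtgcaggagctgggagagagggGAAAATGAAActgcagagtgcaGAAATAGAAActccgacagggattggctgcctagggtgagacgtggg
IFI44 (chr1:78649669-78649788, + strand): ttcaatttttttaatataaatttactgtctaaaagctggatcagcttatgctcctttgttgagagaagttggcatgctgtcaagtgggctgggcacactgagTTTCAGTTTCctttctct
SAMD9 (chr7:93118006-93118125, - strand): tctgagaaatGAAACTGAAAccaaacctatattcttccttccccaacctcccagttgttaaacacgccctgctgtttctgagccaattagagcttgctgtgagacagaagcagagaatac
IFIH1 (chr2:162318734-162318853, - strand): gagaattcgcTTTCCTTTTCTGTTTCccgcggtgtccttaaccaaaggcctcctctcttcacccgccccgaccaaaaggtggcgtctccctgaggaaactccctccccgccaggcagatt
IFI6 carries 3 copies of the motif in this stretch and IFIT1 carries 2. The averaged differences were -0.30 for IFI6, -0.24 for IFI44 and -0.41 for SAMD9, with limma adjusted p of 0.778, 0.627 and 0.622. These 3 genes were picked for the display, outside the rules for naming genes, and lie below the list median. Of the members fixed by those rules, IFIT2 had -0.12, IFIT3 -0.13, OAS1 -0.28 and ISG15 0.02.

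The spread of these genes between replicates was large and followed single arrays. IFIT1, an antiviral protein that binds foreign RNA, had levels of 7.83, 6.56 and 6.96 in NTC vehicle arrays, against 6.82, 8.20 and 6.60 in parental vehicle arrays. With HRG it had 6.97, 7.37 and 6.55 in NTC cells, against 8.05, 8.44 and 6.72 in parental cells. The highest array of each parental group was replicate 2, and NTC and parental arrays overlapped in both states. The averaged difference of IFIT1 was -0.43 with an SE of 0.30 (limma adjusted p = 0.862). MX1, a GTPase that blocks viruses, was high in the same arrays, with 8.67 and 8.65 in parental replicate 2, against 7.20 to 8.18 in the other parental arrays, and an averaged difference of -0.37 (SE 0.23, limma adjusted p = 0.798).

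Over the whole list, the mean level was 6.64, 6.40 and 6.46 in NTC vehicle arrays, against 6.45, 6.85 and 6.44 in parental vehicle arrays. With HRG it was 6.40, 6.57 and 6.30 in NTC cells, against 6.63, 6.78 and 6.37 in parental cells. Without parental vehicle 2 and parental HRG 2, an alternative chosen after the data were seen, the list median was 0.00 averaged over HRG states, 0.04 without HRG and -0.07 with HRG, the difference of IFIT1 was -0.01 and that of MX1 was 0.01. SP100 had -0.16 and HERC5 -0.17 without these 2 arrays, and neither passed. This alternative took out the parental array with the highest list mean in each state and kept all NTC arrays. Such a choice favours a shift of the list difference upward. The medians of the list in cells with duplexes #1 and #2, against all 6 parental arrays, were -0.20 and -0.26.

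**Figure D2:**
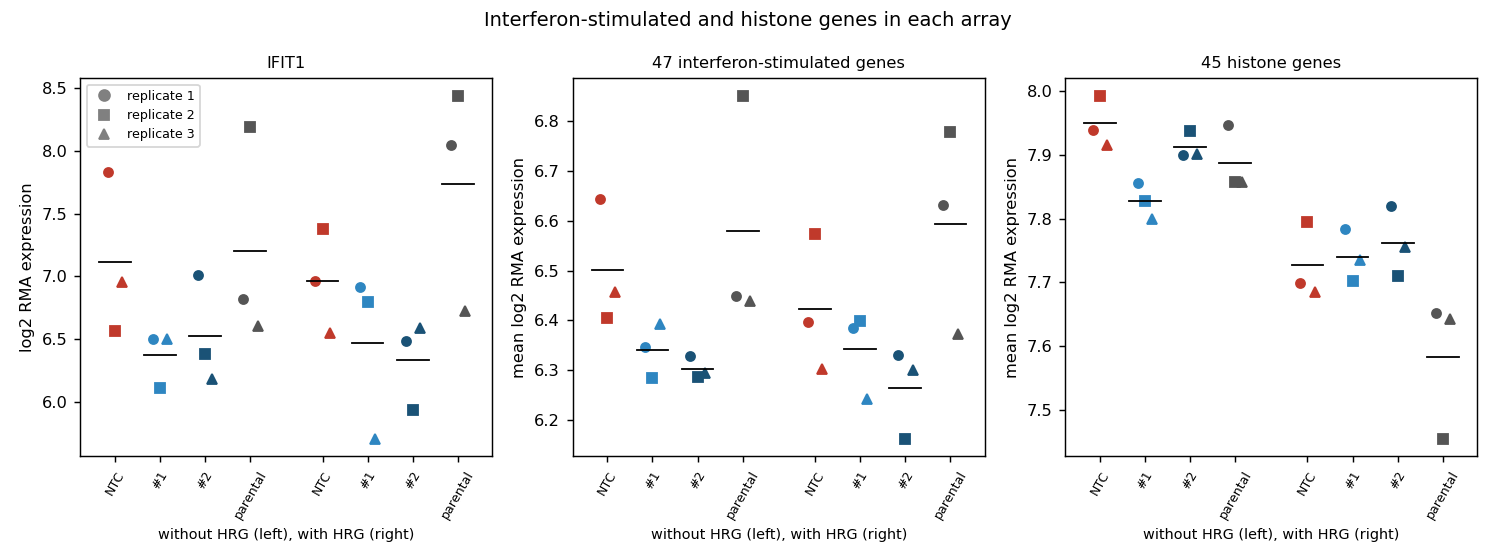
RMA log2 expression of IFIT1 and mean log2 expression of 47 interferon-stimulated and 45 histone genes in each of the 24 arrays, without HRG on the left and with HRG on the right of each panel; points are arrays, markers replicate numbers and lines group means. IFIT1 is highest in parental replicate 2 in both states (8.20 and 8.44), and the histone mean with HRG is 7.68 to 7.80 in NTC arrays, against 7.45 to 7.65 in parental arrays.

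Sensors of double-stranded RNA and the interferon pathway above these genes did not pass either. Of 30 measured genes 0 passed and 20 were below 0 (45.1% of all probe sets). At an unadjusted p under 0.05, 1 was higher (4.28% of all probe sets) and 4 were lower (2.9%). IFIH1 had levels of 6.72, 6.46 and 6.61 in NTC vehicle arrays, against 6.67, 7.05 and 6.29 in parental vehicle arrays, and of 6.19, 6.47 and 5.78 in NTC HRG arrays, against 6.77, 6.77 and 6.32 in parental HRG arrays. NTC and parental arrays overlapped in both states, and its averaged difference was -0.27 (limma adjusted p = 0.620), or -0.14 without parental vehicle 2 and parental HRG 2. TLR3 had -0.19, DHX58, a helicase that tunes RIG-I signalling, -0.18, RIGI -0.13 and EIF2AK2 -0.10, while the kinase JAK1 had 0.09. Among 30 NF-kappa B and inflammatory cytokine genes 0 passed, 20 were below 0 (45.1% of all probe sets) and 4 were lower at an unadjusted p under 0.05 (2.9% of all probe sets), ICAM1 with -0.22, IL1B and CCL5 with -0.15 each and IL6 with -0.10. The median of that list was -0.01, and the fixed genes NFKBIA and CXCL8 had -0.01 and 0.01.

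Genes that process small RNAs were represented by DICER1, which lay just outside the threshold. Its levels were 10.45, 10.38 and 10.30 in NTC vehicle arrays, against 10.22, 10.09 and 10.01 in parental vehicle arrays, and 10.78, 10.76 and 10.58 in NTC HRG arrays, against 10.53, 10.53 and 10.56 in parental HRG arrays. NTC and parental arrays did not overlap in either state. The averaged difference was 0.22 (SE 0.05, limma adjusted p = 0.0748), and the exact permutation test gave p = 0.005, with an adjusted p of 0.0925, as for B2M. Duplexes #1 and #2 had 0.19 and 0.24. Of the 24 genes of this list 0 passed, the median was 0.00, and AGO4, an Argonaute protein, had -0.16, PIWIL2 0.14 and AGO2 -0.03.

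Stress programs showed no gene that passed. The unfolded protein response list (25 genes measured) had a median of 0.01, with EDEM1 at 0.13 and the chaperone HSPA5 at -0.05. The ATF4 list (31 genes) had a median of 0.04. ATF4 itself had 0.04, DDIT3 0.04, ASNS -0.01 and the arginine transporter SLC7A1 0.16. By state the list median was -0.01 without HRG and 0.07 with HRG, against -0.01 and 0.03 for all probe sets. The HSF1 list (22 genes) had a median of -0.01, with DNAJB1 at -0.02. The p53 list (25 genes) had a median of 0.04, with CDKN1A at 0.05, MDM2 at 0.02 and TP53INP1 at -0.16. For NRF2 targets (27 genes) the median was 0.00, with HMOX1 and NQO1 at 0.00 and FTL, the ferritin light chain, at -0.13. HSPA5 had levels of 11.94, 11.94 and 11.98 in NTC vehicle arrays, against 11.95, 12.03 and 12.04 in parental vehicle arrays, and the groups overlapped. Its exact permutation test gave p = 0.025 and an adjusted p of 0.231 over 37 genes.

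No gene passed in the lists tied to lipid uptake and metabolism, whose medians can be read against 0.01 for all probe sets, of which 4.28% were higher and 2.9% lower at an unadjusted p under 0.05. Sterol synthesis and uptake genes (20 measured) had a median of 0.05, 3 of them higher at an unadjusted p under 0.05 (4.28% of all probe sets), which were MSMO1 (0.14), INSIG1 (0.17) and STARD4 (0.15). Fatty acid and lipid droplet genes (27) had a median of 0.04, with PLIN2, a coat protein of lipid droplets, at 0.03. Lysosome and autophagy genes (35) had a median of 0.01, and WIPI1, which binds the forming autophagosome, had 0.17 (limma adjusted p = 0.107). Endocytosis genes (29) had a median of 0.02 with 0 past an unadjusted p of 0.05 in either direction. Metallothionein and zinc genes (15) had a median of 0.05, with MT1H at 0.23, MT1F at 0.16 and MT2A at 0.12. MT1X had -0.02, SLC30A2 was also lower, and 3 of the 15 were below 0 (45.1% of all probe sets). Hypoxia and glycolysis genes (29) had a median of 0.06, 4 of them below 0 (45.1% of all probe sets) and 5 higher at an unadjusted p under 0.05 (4.28%), with ADM, the vasodilator adrenomedullin, at 0.30 and PDK1 at 0.17.

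Replication-dependent histone genes had the highest median of the 30 lists. Their transcripts are made in S phase and end in a stem-loop instead of a poly(A) tail. Of 45 measured genes 40 were above 0 and 5 were below 0 (45.1% of all probe sets were below 0). At an unadjusted p under 0.05, 18 were higher and 0 lower (4.28% and 2.9% of all probe sets), and 0 passed. The median was 0.10, with 0.06 without HRG and 0.13 with HRG. Histone genes are near-identical copies of each other, and the probe sets may share transcripts, so that their count is not one of independent genes.

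H2AC8, an H2A gene, had 7.92, 7.85 and 7.75 in NTC vehicle arrays, against 7.76, 7.57 and 7.71 in parental vehicle arrays. Under HRG it had 7.49, 7.56 and 7.52 in NTC cells, against 7.33, 7.22 and 7.33 in parental cells. The arrays overlapped in vehicle and were apart under HRG, and the averaged difference was 0.19 (SE 0.05, limma adjusted p = 0.122). H4C3 and H2BC17 had 0.19 each and the linker histone H1-2 had 0.14. The mean of the 45 genes was 7.94, 7.99 and 7.92 in NTC vehicle arrays, against 7.95, 7.86 and 7.86 in parental vehicle arrays. With HRG it was 7.70, 7.80 and 7.68 in NTC cells, against 7.65, 7.45 and 7.64 in parental cells, so that the lowest array was again parental HRG 2. Without parental vehicle 2 and parental HRG 2 the list median was 0.07.

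Many histone promoters hold a CCAAT box, the motif of the factor NF-Y. Searched as CCAAT on both strands (reverse complement ATTGG), it was in 36 of the 40 list genes with a window (90.0%), against 39.7% of all 27305 genes. The share was 87.5% in the unfolded protein response list, 85.2% in the mitotic list and 83.3% in the sterol list. The median difference was 0.10 for the histone genes with the motif and 0.07 for those without. A stretch of the H2AC8 promoter on GRCh38.p14, before the start site, is given because H2AC8 had the smallest p of the list, with 3 matches in capitals:
H2AC8 (chr6:26216752-26216871, + strand): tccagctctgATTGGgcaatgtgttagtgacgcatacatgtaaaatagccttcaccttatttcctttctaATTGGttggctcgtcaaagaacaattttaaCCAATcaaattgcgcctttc

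Other genes of proliferation had small differences that did not pass. Of 33 mitotic genes 1 was below 0 on average (45.1% of all probe sets) and 4 were higher at an unadjusted p under 0.05 (4.28%), which were KIF2C (0.13), FOXM1 (0.10), BIRC5 (0.10) and PRC1 (0.07), and 0 passed. The median was 0.11 without HRG and 0.01 with HRG, and the difference between these states had a median of -0.09, with 0 of 33 past the adjusted threshold for the interaction. Without the 4 arrays apart on the second principal component the medians were 0.08 in both states, and without parental HRG 3 the median with HRG was -0.06. The mean level of the list was 9.85 to 9.89 in NTC vehicle arrays, against 9.69 to 9.81 in parental vehicle arrays, and 9.22 to 9.47 in NTC HRG arrays, against 9.23 to 9.47 in parental HRG arrays. G1/S and replication genes (40) had a median of 0.03, with the thymidine kinase TK1 at 0.14 and the licensing factor CDT1 at 0.13. How the cells were spread over the cell cycle was not measured.

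In the lists that follow, up to the housekeeping genes, 0 genes passed. Medians were 0.03 for immediate early genes (34, JUN -0.25 and DUSP5 0.15), 0.03 for oxidative phosphorylation (37, NDUFA2 0.19), 0.03 for regulators of apoptosis (28, CASP1 -0.19 and PMAIP1 0.18), 0.02 for FOXO targets (34, KLHL24 -0.25) and 0.02 for ribosomal proteins (39). Immediate early genes had a median of -0.02 without HRG, where 24 of 34 were below 0 (52.5% of all probe sets). With HRG their median was 0.09, and 7 of 34 were below 0 (40.4% of all probe sets). That median was 0.02 without the 4 arrays apart on the second principal component, where all probe sets had 0.02, and 0.14 without NTC HRG 1. Without parental HRG 1 the averaged median of these genes was -0.005. In this list 0 genes passed for the interaction. For Rac exchange factors and Rac GTPases (23) the median was -0.01, with SOS1 at -0.20. For 12 housekeeping genes it was 0.01, with GAPDH at 0.02 and ACTB at 0.01. Of the 13 luminal markers TFF3 alone passed (0.057% of all probe sets passed as higher), and the median of that list was -0.01.

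**Figure D3:**
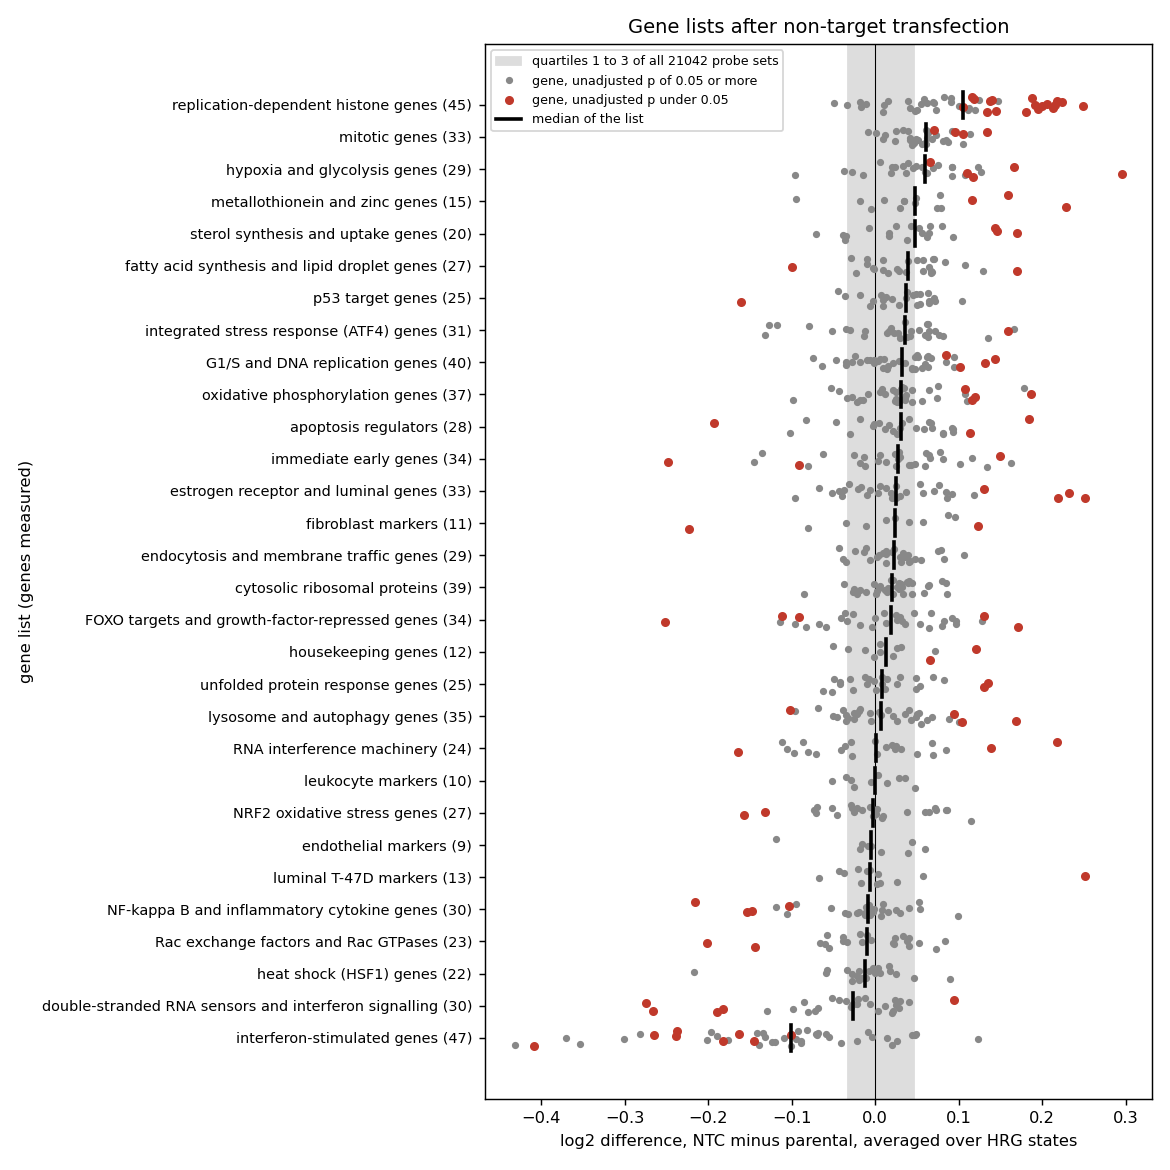
Averaged log2 difference, NTC minus parental, of each measured gene in 30 lists (dots, red at an unadjusted p under 0.05) with the list median as a black bar and the span between the lower and upper quartiles of all 21042 probe sets as a grey band, from -0.03 to 0.05. Histone genes have the highest median (0.10) and interferon-stimulated genes the lowest (-0.10).

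Without HRG, 1 probe set was higher (0.00475%) and 1 was lower (0.00475%) in NTC cells. The gene that rose was GALNT7, an enzyme of mucin-type O-glycosylation. It had levels of 8.43, 8.49 and 8.45 in NTC vehicle arrays, against 8.19, 8.10 and 7.90 in parental vehicle arrays, a difference of 0.40 (SE 0.06, limma adjusted p = 0.0383). The groups were apart. With HRG, GALNT7 had 9.08, 9.05 and 8.87 in NTC cells, against 8.98, 8.96 and 9.02 in parental cells, and the difference was 0.01. The gene that fell was PSKH1 (difference -0.36, limma adjusted p = 0.0383). At an unadjusted p under 0.05 there were 534 higher (2.54%) and 669 lower (3.18%). ANXA1, a phospholipid-binding protein, had -0.44 without HRG and did not pass (limma adjusted p = 0.152).

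With HRG, 0 probe sets were higher (0%) and 0 were lower (0%) by limma, while 1208 were higher (5.74%) and 822 lower (3.91%) at an unadjusted p under 0.05. The smallest adjusted p was 0.0729, for GPC6 with a difference of 0.39 and for KLHL24 with -0.50. KLHL24, of the list of FOXO targets, had 7.52, 7.53 and 7.29 in NTC HRG arrays, against 7.97, 8.01 and 7.85 in parental HRG arrays. These were apart, while without HRG it had 9.65, 9.51 and 9.62 in NTC cells, against 9.63, 9.58 and 9.60 in parental cells. With the replicate number as a block in the fit, 5 probe sets passed with HRG, which were GPC6, KLHL24, MECOM, ERAP1 and a probe set shared by GTF2IRD2 and GTF2IRD2B.

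The test of the difference between the states passed for 0 probe sets in either direction (0% higher and 0% lower), and 1727 had an unadjusted p under 0.05. The smallest adjusted p was 0.603, so that no gene was shown to respond to transfection differently with and without HRG. GALNT7 had an interaction of -0.39 and KLHL24 one of -0.49 (unadjusted p = 0.000356 and 0.000495). Across probe sets, which are not independent replicates, the differences in both states, from separate arrays, had a Pearson r of -0.11, and 43.5% had the same sign. Of the probe sets with an unadjusted p under 0.05 in each state, 104 were in both lists with the same sign, or 8.65% of the list without HRG and 5.12% of that with HRG.

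**Figure D4:**
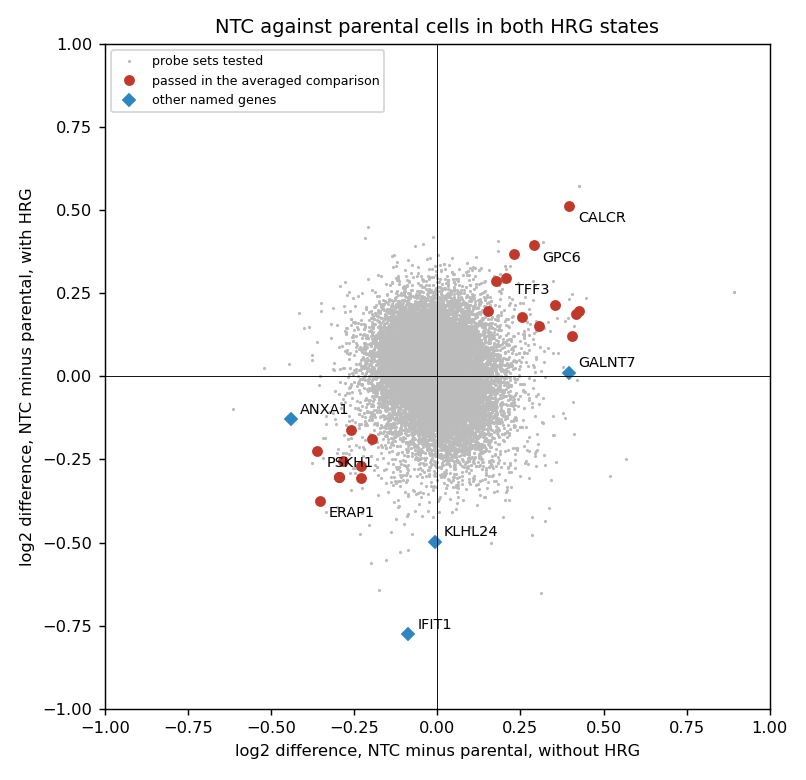
Log2 difference, NTC minus parental, without HRG (horizontal) and with HRG (vertical) for 21042 probe sets (grey), the 22 that passed in the averaged comparison (red) and 4 other named genes (blue). CALCR lies at 0.40 and 0.51, ERAP1 at -0.35 and -0.37, and IFIT1 at -0.09 and -0.78.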

How the data were processed

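Total RNA of T-47D cells was hybridized to Affymetrix Human Gene 1.0 ST arrays. The values the authors deposited are log2 expression values after RMA. Columns were matched to samples by title, and columns not used numbered 0. The platform annotation gave 19292 probe sets 1 symbol, 1750 several and 7494 none here. All 24 arrays entered a model with 1 mean per group by limma (version 3.58.1, run in R 4.3.3), with contrasts averaged over HRG states, within each state and for their interaction. PREX1 and 36 other genes were tested by exact permutation in Python, with 400 arrangements. The naming rules took the 10 largest rises and falls that passed, filled by smallest p. They also took up to 4 genes of each of 30 lists, and fixed genes, all from probe sets with 1 symbol. Not every gene so taken is named above. Fixed genes otherwise unnamed were IRF7 (-0.02), ATF3 (0.03), TRIB3 (0.07), HSPA6 (-0.02), HMGCS1 (0.09) and SQSTM1 (-0.07), given as averaged differences. IFI6, IFI44 and SAMD9 were added outside these rules for the printed promoters. The members, gene lists and rules were chosen with earlier results of these data known. Deviations of same-numbered NTC and parental arrays correlated at 0.19, 0.03 and 0.23 without HRG and at 0.22, 0.14 and 0.42 with HRG. Differently numbered arrays had values between -0.30 and 0.14. Deviations from a mean of 3 arrays sum to 0, so these values are not independent of the same-numbered ones. Most but not all arrays correlated best with their own number. The main fit left the number out, and the fit with it as a block is given below. The fit was tested on simulated data. No counts exist for arrays, and the number of arrays limits the precision. Figures were drawn with matplotlib 3.10.9 (Python 3.11.15). HSPA1A was not analysed here.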

Additional observations from a re-analysis of the deposited data

How the results depend on the processing

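The count of 22 probe sets in the averaged comparison moved with the settings. With the replicate block it was 53, and 9 without HRG and 5 with HRG. In that fit DICER1 (limma adjusted p = 0.0238), WIPI1 (0.0238), ADM (0.0206), TFF1 (0.0431) and KLHL24 (0.0431) passed the averaged comparison. Most but not all arrays correlated best with their own number. With only the 12 NTC and parental arrays it was 9, without the 4 arrays apart on the second principal component 8, and without parental vehicle 2 and parental HRG 2, chosen after seeing the data, 6, which were GPC6, ERAP1, PSKH1 and the 3 FAM25 probe sets. In these settings 0 passed without HRG, as with all probe sets. Array weights gave 145, with 82 without HRG and 13 with HRG. Parental vehicle 2, the array with the highest interferon list mean, had the largest weight (2.86), and parental vehicle 3 the smallest (0.39). Variance trend with robust fitting gave 4 without and 2 with HRG. Over 1.5-fold, 0 were left in every comparison. With each array left out in turn the averaged count lay between 9 and 21, that without HRG between 0 and 2 and that with HRG between 0 and 2. The averaged count was 13 without parental vehicle 2, 14 without parental HRG 1, 9 without parental HRG 2, 14 without parental HRG 3, 12, 10 and 11 without NTC vehicle 1, 2 and 3, and 10 without NTC HRG 1. The interaction gave 0 under all alternatives run. The cause of these shifts was not tested.

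GPC6, ERAP1 and PSKH1 passed the averaged comparison in 21 of 21 alternatives, CALCR in 18, TFF3 in 17, TMPRSS3 in 15 and ST3GAL6 in 4. DICER1 passed in 5 and TFF1 in 3. GALNT7 and PSKH1 passed without HRG in 8 of 21. Without parental vehicle 2 and parental HRG 2, CALCR had 0.38 (limma adjusted p = 0.0655) and TFF3 0.22 (limma adjusted p = 0.105). The exact test of PREX1 gave a difference of -0.11 and p = 0.09 without parental vehicle 3 and NTC HRG 3. No called gene value reversed. The median of interferon-stimulated genes ran between -0.17 (array weights) and 0.00, that of histone genes between 0.07 and 0.13. With 3 arrays a group, a typical averaged difference had an SE of 0.06, and differences of dim probe sets are compressed toward background.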
